A study of Homo sapiens with 18 samples.

Results

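Matrix metalloproteinases and 2 of their tissue inhibitors were followed in 3D spheroids of MDA-MB-231 triple-negative breast cancer cells in which the Notch ligand Jagged1 was removed, put back or silenced. The 10 genes were taken by symbol (MMP1, MMP2, MMP3, MMP9, MMP10, MMP13, MMP14, MMP15, TIMP1 and TIMP2) from the 21411 rows of the count table. The inhibitor TIMP1 was the 1 member that passed the test between parental and knockout spheroids, being 1.58-fold higher in the parental cells. Of all genes tested, 0.714% passed there. The TIMP1 result did not pass in most fits with a library left out, nor in a fit over all 18 libraries together. MMP10, a stromelysin, had a higher mean in the group with more JAG1 in each of the 3 comparisons, by a fitted 2.21-, 2.61- and 2.12-fold over all libraries. It did not pass in these fits. DESeq2, an alternative test, called it between parental and knockout spheroids, with 1.82% of all genes. MMP10 varied widely between replicates, and its fold moved with single libraries. Where Jagged1 was put back, its fold also moved with the model, to 6.91 and 7.48 in 2 others. For MMP1, MMP3 and MMP10, the 3 replicates of each low-JAG1 group differed from each other by a larger fold than the group did from its counterpart. For MMP1 and MMP3 the same held in untransfected parental cells and in those given control siRNA. The spread is the highest replicate over the lowest, and how often it exceeded the group difference among all genes was not counted.

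Matrix metalloproteinases are zinc-dependent proteases that cut collagens, proteoglycans and other extracellular matrix proteins. Most are secreted as inactive proenzymes, whereas the membrane-type enzymes are anchored at the cell surface and can activate others there. The tissue inhibitors of metalloproteinases (TIMPs) bind the active site, and TIMP2 also takes part in the activation of proMMP2 by MMP14. In breast cancer these enzymes are best known for opening a path through collagen and basement membrane.

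The series holds 18 RNA-sequencing libraries from 6 conditions with 3 biological replicates each, all from the same cell line grown as spheroids in Matrigel (2 mg/ml) for 7 days after seeding 50000 cells. Jag1WT are the parental cells, and Jag1KO is made of single-cell clones, mixed after Cas9 editing of JAG1. The rescued cells (Jag1KO + rescue) carry a pcDNA3.1 plasmid with Jagged1 cDNA, Jag1KO + ctrl cells the empty plasmid, and both were kept under G418 selection. The siCtrl and siJag1 groups are Jag1WT cells that received a nontargeting siRNA or a cocktail of Jagged1 siRNAs before seeding.

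JAG1 RNA checked the labels. It ranged from 433 to 626 CPM (counts scaled to library size) in the Jag1WT and siCtrl libraries and from 534 to 657 in Jag1KO + rescue, against 110.2 to 205 in Jag1KO, Jag1KO + ctrl and siJag1. Total counts were between 10330581 and 18327890 per library. VIM, CD44, EGFR and KRT18, which mark this line, were above 1 CPM in 18 of 18 libraries, while ESR1, PGR and CDH1 reached at most 1.77 CPM. The fibroblast markers DCN, LUM and COL1A2 reached at most 0.273 CPM and the leukocyte marker PTPRC 0.196, although COL1A1 (2.66 to 10.04 CPM), CD68 (88.9 to 209), CD14 (1.23 to 4.99), CSF1R (0.136 to 4.98), PDGFRB (0.130 to 1.35) and PECAM1 (0.954 to 15.1) were detected. The summed CPM of the 3 endothelial markers (PECAM1, CDH5 and VWF) was 1.09 to 3.96 in Jag1KO + rescue and 5.72 to 15.6 in Jag1KO + ctrl. In that comparison PECAM1 had a log2 fold change of -2.13 ± 0.54 and CD14 of -1.34 ± 0.32, which were not called (adjusted p of 0.105 and 0.104 by edgeR), and the part of such markers in the member differences was not tested. Within their groups, Jag1KO replicate 1, Jag1KO + ctrl replicate 3 and siJag1 replicate 2 had the lowest mean correlation with the other replicates over all genes, and results that rest on them are given with and without them.

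MMP10, MMP1, MMP3 and MMP13 lie in the metalloproteinase cluster of chromosome 11, on the minus strand of GRCh38.p14. MMP10 (Entrez gene 4319) is at chr11:102770502-102780628, MMP1 (4312) at chr11:102789919-102798160, MMP3 (4314) at chr11:102835801-102843609 and MMP13 (4322) at chr11:102942995-102955732. Only 9290 bases separate MMP10 from MMP1. Their neighbours MMP7, MMP8 and MMP12 were almost silent, with 10, 15 and 6 reads over the 18 libraries. The others are dispersed. MMP14 (4323) is at chr14:22836585-22847758, MMP2 (4313) at chr16:55478830-55506691, MMP15 (4324) at chr16:58025754-58046901, MMP9 (4318) at chr20:46008908-46016561, TIMP2 (7077) at chr17:78852977-78925387 and TIMP1 (7076) at chrX:47582436-47586789.

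Members were compared in CPM, and the promoters of MMP10 and TIMP1 are shown because these were the metalloproteinase and the inhibitor with the clearest difference between Jag1WT and Jag1KO. Each is the 250 bases before the RefSeq gene start (GRCh38.p14), 5′ to 3′ along the gene, at chr11:102780629-102780878 on the minus strand for MMP10 and chrX:47582186-47582435 on the plus strand for TIMP1. Capitals mark matches to 4 motifs that were searched on both strands. The AP-1 motif was written as TGANTCA. The motif of RBPJ, the DNA-binding partner of Notch, was written as GTGGGAA. The TATA box was searched with the letters TATAAA. The motif of RUNX factors was written as AACCACA.
MMP10: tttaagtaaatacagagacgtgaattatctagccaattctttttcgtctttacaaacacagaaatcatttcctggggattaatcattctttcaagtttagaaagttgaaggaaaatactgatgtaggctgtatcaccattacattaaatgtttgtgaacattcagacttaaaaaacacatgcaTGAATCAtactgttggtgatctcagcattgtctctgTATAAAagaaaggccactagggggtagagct
TIMP1: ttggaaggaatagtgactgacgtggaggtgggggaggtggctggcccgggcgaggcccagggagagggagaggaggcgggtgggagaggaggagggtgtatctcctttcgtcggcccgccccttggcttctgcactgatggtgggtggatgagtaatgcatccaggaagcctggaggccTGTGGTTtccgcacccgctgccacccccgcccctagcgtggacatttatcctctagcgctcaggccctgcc
The MMP10 promoter held an AP-1 match 67 bases before the start and a TATA box match 31 bases before it. The TIMP1 promoter held a RUNX match on the minus strand 71 bases before the start. Only exact matches were marked, so letters close to the AP-1 motif, such as tgagtaa in the TIMP1 promoter, were not. Neither held GTGGGAA. Of 35116 promoters of this length, 6.57% held the AP-1 letters, 10.7% the TATA box, 3.65% RUNX and 5.43% RBPJ. The promoters of MMP14 and MMP15 held none of these letters.

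The spheroids made one metalloproteinase in great excess. Per transcript length, MMP1 had a mean level of 2704 RPKM (CPM divided by gene length in kilobases) over the 18 libraries, the 13th highest of 21119 genes, and took from 0.123% to 0.921% of all counts of a library. MMP14 followed at 394 RPKM, then TIMP1 at 121, TIMP2 at 78.7, MMP10 at 33.6 and MMP3 at 27.8. MMP15 was at 1.03 RPKM, and MMP13 (0.250), MMP9 (0.113) and MMP2 (0.00862) were near the limit of detection. MMP1 made up from 59.3% to 92.7% of the summed RPKM of the 8 metalloproteinases in a library and MMP14 from 4.35% to 40.2%.

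Genes entered a test when 3 or more of its 6 libraries exceeded 1 CPM, which 7 of the 10 members did in every comparison. MMP2, MMP9 and MMP13 did not. A gene was called when the quasi-likelihood test of edgeR gave it a Benjamini-Hochberg adjusted p under 0.05 over all genes tested and its groups differed by more than 1.5-fold. In Jag1WT against Jag1KO 1 of the 7 members was called, higher in Jag1WT, where 0.714% of 12879 genes were called. In Jag1KO + rescue against Jag1KO + ctrl 0 of 7 were called, as against 0.00778% of 12850 genes, which was JAG1 alone, and 3 members had an unadjusted p below 0.05 among 3954 genes that did. In siCtrl against siJag1 0 of 7 were called, as against 0.0157% of 12774 genes, and 0 of 7 had an unadjusted p below 0.05. JAG1 itself, 3.20-fold higher in siCtrl, was not called there (adjusted p = 0.111, edgeR), though it was with the replicate block (adjusted p = 0.0179, edgeR). DESeq2 called 2, 1 and 0 members in these 3 comparisons, where it called 1.82%, 12.3% and 0.188% of all genes tested. For MMP10 in the rescue DESeq2 gave no p. With limma 1, 0 and 0 members were called, beside 0.722%, 0.0156% and 0% of all genes. When one model was fitted to all 18 libraries, edgeR called 0, 2 and 0 members, beside 1%, 16.7% and 0.0549% of all genes. The median log2 fold change of the 7 members was 0.30, 0.37 and 0.04, beside -0.01, -0.0024 and -0.01 over all genes tested. Since members are bulk RNA levels, fewer cells of a type and less RNA per cell cannot be told apart.

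**Figure D1:**
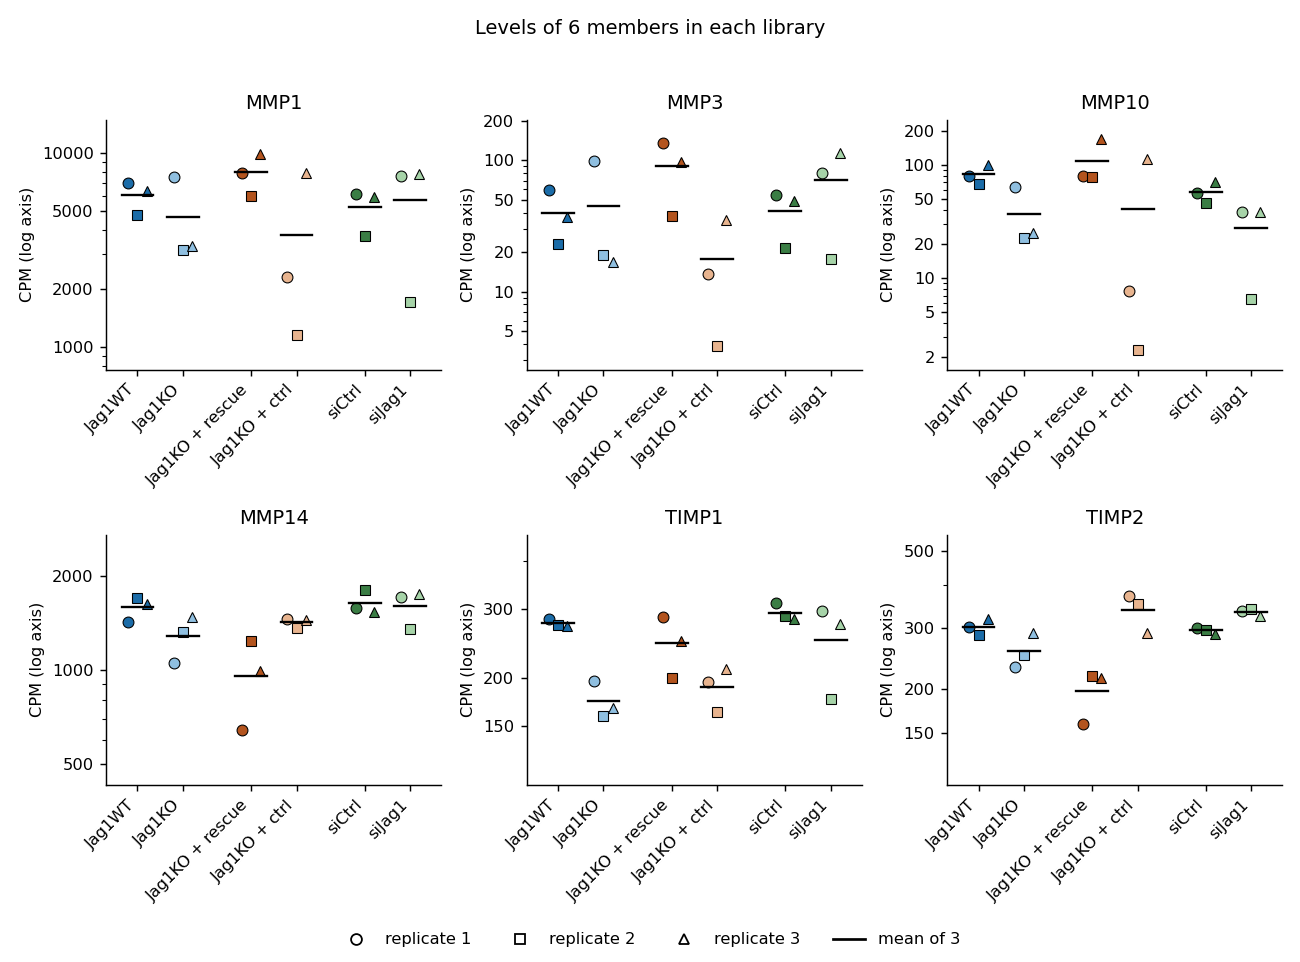
Level of 6 members in each of the 18 libraries, in CPM on a log axis, by condition. Symbols give the replicate number and bars the mean of 3. TIMP1 of Jag1WT (272 to 283 CPM) lies above Jag1KO (159 to 196), whereas MMP1, MMP3 and MMP10 of Jag1KO + ctrl spread over 6.84-fold, 9.18-fold and 48.5-fold.

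Of the interstitial collagenases, which cut fibrillar collagen, MMP1 was abundant and MMP13 was not. MMP1 measured 7006, 4770.2 and 6383 CPM in the 3 Jag1WT libraries and 7493, 3169.7 and 3325 in Jag1KO. It measured 7859, 6019 and 9897 CPM in Jag1KO + rescue and 2287, 1150.1 and 7866 in Jag1KO + ctrl. In siCtrl it measured 6121, 3716 and 5897 CPM and in siJag1 7561, 1711 and 7792. The groups overlapped in all 3 comparisons, because 1 Jag1KO library and 1 Jag1KO + ctrl library were as high as the groups with more JAG1, and 1 siJag1 library was far below the other siJag1 libraries. The log2 fold change of MMP1 was 0.37 ± 0.33 (SE, n = 3 and 3) in Jag1WT against Jag1KO, with an adjusted p of 0.791 by edgeR. It was 1.06 ± 0.63 in the rescue against its control (adjusted p = 0.273, edgeR) and -0.10 ± 0.51 in siCtrl against siJag1 (adjusted p = 0.991, edgeR). By mean CPM the order of the groups was Jag1KO + rescue (7925 ± 1940, SD, n = 3), Jag1WT (6053), siJag1 (5688), siCtrl (5245), Jag1KO (4662) and Jag1KO + ctrl (3768 ± 3594), and each group overlapped with the next.

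The MMP1 result depended on single libraries. Without Jag1KO replicate 1, MMP1 was called higher in Jag1WT (log2 fold change 0.89 ± 0.17, adjusted p = 0.0151 by edgeR). Without Jag1KO + ctrl replicate 3, it was called higher in Jag1KO + rescue (2.20 ± 0.35, adjusted p = 0.00582 by edgeR). Leaving out these libraries also raised the share of all genes called, from 0.714% to 7.39% and from 0.00778% to 29%. MMP13 had between 3 and 50 reads per library and stayed at or below 0.997 CPM except in Jag1KO + ctrl replicate 1, at 3.00 CPM, so that no difference was detectable at this depth.

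The stromelysins MMP3 and MMP10 degrade proteoglycans and basement membrane proteins and can activate procollagenases. MMP10 measured 79.5, 67.5 and 100.4 CPM in Jag1WT and 63.2, 22.8 and 25.2 in Jag1KO. It measured 56.8, 46.5 and 70.3 CPM in siCtrl and 38.1, 6.60 and 38.3 in siJag1. All 6 Jag1WT and siCtrl libraries were thus above those of the groups they are compared with. In the rescue it measured 79.8, 78.8 and 168 CPM, against 7.67, 2.34 and 113 in Jag1KO + ctrl, and here the third control library fell among the rescue libraries. The log2 fold change of MMP10 was 1.15 ± 0.37 (SE, n = 3 and 3) in Jag1WT against Jag1KO, a 2.21-fold difference with an unadjusted p of 0.0142 and an adjusted p of 0.379 in the test of edgeR across genes. It was 1.39 ± 1.14 in the rescue (adjusted p = 0.411, edgeR) and 1.08 ± 0.54 in siCtrl against siJag1 (adjusted p = 0.97, edgeR). The Jag1WT difference was called by DESeq2 (1.15, adjusted p = 0.0468), with 1.82% of all genes. It was also called by edgeR without Jag1KO replicate 1 (1.77 ± 0.18, adjusted p = 0.00100). The rescue difference was called by edgeR without Jag1KO + ctrl replicate 3 (4.44 ± 0.59, adjusted p = 0.00374). Without siJag1 replicate 2, the lowest siJag1 library, the siRNA difference fell to 0.61 ± 0.16, which is 1.53-fold (adjusted p = 0.489, edgeR). With a library left out the fold ranged from 1.86 to 3.42 in Jag1WT against Jag1KO, from 1.77 to 21.7 in the rescue and from 1.53 to 2.62 in siCtrl against siJag1. In the siRNA comparison, treated as paired by replicate number, the fit with the replicate block gave 1.34 ± 0.37 (adjusted p = 0.496, edgeR), with 0.0313% of genes called. The block gave 1.27 ± 0.27 in Jag1WT against Jag1KO (adjusted p = 0.0519, edgeR) and 2.90 ± 0.75 in the rescue (adjusted p = 0.0612, edgeR). It called 2.19% and 0.0233% of all genes in these comparisons, which were not treated as paired. In the rescue limma gave 2.79 ± 1.12 (adjusted p = 0.140), a 6.91-fold difference. The order of the mean levels was Jag1KO + rescue (108.8 CPM), Jag1WT (82.5), siCtrl (57.9), Jag1KO + ctrl (41.1), Jag1KO (37.1) and siJag1 (27.7), with an overlap between all neighbours.

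MMP3 followed a different order. It measured 59.3, 23.2 and 36.9 CPM in Jag1WT and 98.25, 18.9 and 16.8 in Jag1KO. In Jag1KO + rescue it measured 136, 37.6 and 97.5 CPM, above the 13.7, 3.83 and 35.2 of Jag1KO + ctrl in every library. In siCtrl it measured 54.1, 21.4 and 48.8 CPM and in siJag1 80.2, 17.6 and 114. Only the rescue groups did not overlap, with a log2 fold change of 2.35 ± 0.75 (SE, n = 3 and 3, 5.09-fold), an unadjusted p of 0.0140 and an adjusted p of 0.112 by edgeR. This rose to 3.36 ± 0.69 and was called without Jag1KO + ctrl replicate 3 (adjusted p = 0.0120, edgeR). In Jag1WT against Jag1KO the log2 fold change was -0.17 ± 0.66 (adjusted p = 0.961, edgeR), and it became 1.14 without Jag1KO replicate 1 (adjusted p = 0.0507, edgeR). In siCtrl against siJag1 it was -0.75 ± 0.61 (adjusted p = 0.97, edgeR), so that the mean of MMP3 was higher and the mean of MMP10 lower after silencing. Leaving out siJag1 replicate 2 called 0 members, with 0.0313% of all genes called.

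**Figure D2:**
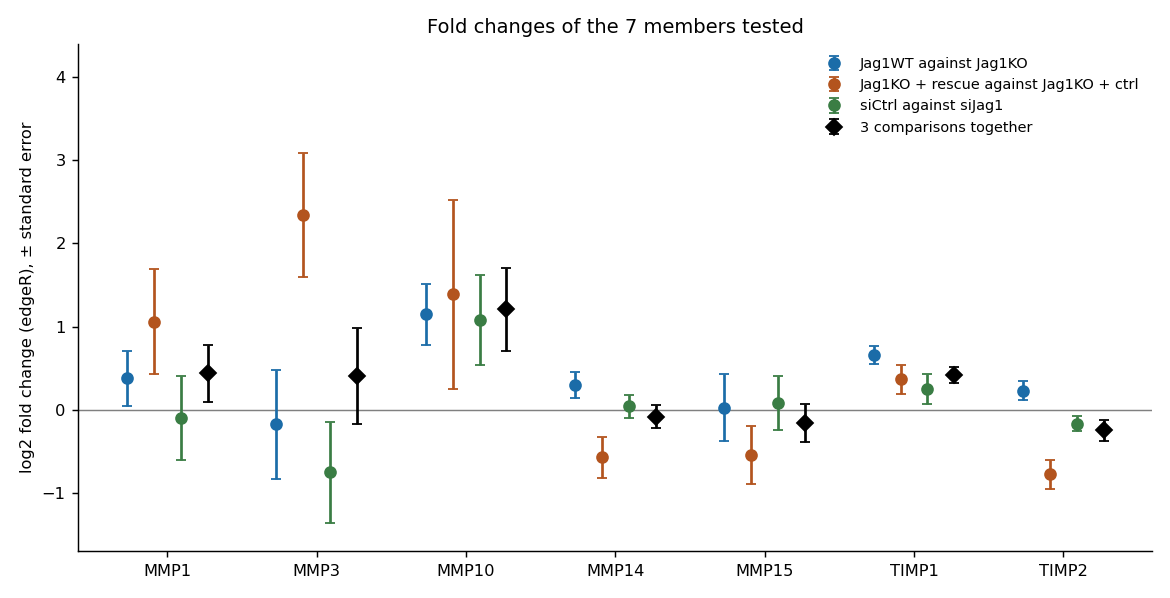
Log2 fold change of the 7 members tested, by edgeR, with bars of 1 standard error, for each of the 3 comparisons (3 libraries against 3) and for the fit of the 3 comparisons together (18 libraries). Values above 0 are higher in the group with more JAG1. MMP10 and TIMP1 lie above 0 in all 4 fits, and TIMP2 lies at 0.23 in Jag1WT against Jag1KO and at -0.78 in the rescue.

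The gelatinases MMP2 and MMP9 cut denatured collagen and the type IV collagen of basement membranes, and both were at or near the limit of detection in these spheroids. MMP2 had 0 to 2 reads per library, 10 reads in all, and 0 reads in 11 libraries. MMP9 had 0 to 10 reads per library, 68 reads in all, and 0 reads in 2 libraries, and it reached at most 0.772 CPM. A count of 0 allows up to 3 reads, which is between 0.162 and 0.287 CPM in these libraries. Neither gene was high enough to be tested, and the limits cover counting error only.

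Of the membrane-type enzymes, MMP14, a collagenase of the cell surface, was abundant in every library. It measured 1427, 1702 and 1625 CPM in Jag1WT and 1052, 1322 and 1481 in Jag1KO. It measured 1579.7, 1803 and 1536 CPM in siCtrl and 1705, 1354 and 1747 in siJag1, and these groups overlapped. In Jag1KO + rescue it measured 646, 1239 and 990.3 CPM, below each of the 1453, 1366 and 1449 of Jag1KO + ctrl. The rescue difference was -0.57 ± 0.25 on the log2 scale (SE, n = 3 and 3), with an unadjusted p of 0.0488 and an adjusted p of 0.160 by edgeR. It was called when one model was fitted to all 18 libraries (-0.60, adjusted p = 0.0358, edgeR), in which 16.7% of all genes were called. The log2 fold change of MMP14 was 0.30 ± 0.16 in Jag1WT against Jag1KO (adjusted p = 0.635, edgeR) and 0.04 ± 0.14 in siCtrl against siJag1 (adjusted p = 0.986, edgeR). MMP14 thus had its lowest mean, 958 ± 298 CPM (SD, n = 3), in the group with the highest JAG1. MMP15, a second membrane-type enzyme, stayed between 1.91 and 7.24 CPM, on 27 to 111 reads, and all its groups overlapped. Its log2 fold change was 0.02 ± 0.40, -0.55 ± 0.35 and 0.08 ± 0.33 in the 3 comparisons.

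Of the inhibitors, TIMP1, which blocks most secreted metalloproteinases, gave the one call. TIMP1 measured 283, 274 and 272 CPM in Jag1WT and 196, 159 and 167 in Jag1KO. The 2 groups stood well apart, on 1750 to 4486 reads per library. In Jag1KO + rescue it measured 287, 200.3 and 249 CPM against 195, 163 and 210.4 in Jag1KO + ctrl, with 1 rescue library inside the control range. In siCtrl it measured 311, 288 and 284 CPM against 298, 177 and 276 in siJag1, with an overlap of these groups too. The log2 fold change was 0.66 ± 0.11 (SE, n = 3 and 3) in Jag1WT against Jag1KO, with an adjusted p of 0.0417 by edgeR. It was 0.37 ± 0.17 in the rescue (adjusted p = 0.187, edgeR) and 0.24 ± 0.18 in the siRNA comparison (adjusted p = 0.97, edgeR), where it fell to 0.047 ± 0.090 without siJag1 replicate 2 (adjusted p = 0.975, edgeR). The call remained with limma (adjusted p = 0.0345), with DESeq2 and with the replicate block (adjusted p = 0.00886, edgeR, with 2.19% of all genes called). It was lost in the fit over 18 libraries (adjusted p = 0.0752, edgeR) and in 5 of the 6 fits that left out a library. In those 5 the log2 fold change was between 0.60 and 0.67 and the adjusted p between 0.145 and 0.218 by edgeR. Those 5 fits called between 0.0621% and 0.171% of all genes. Without Jag1KO replicate 1 the difference was larger and was called (0.75 ± 0.10, adjusted p = 0.00320, edgeR), with 7.39% of all genes called. All 6 of these fits had 1 library fewer, and why the call was lost in 5 was not tested.

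TIMP2 did not follow TIMP1. It measured 302, 287 and 319 CPM in Jag1WT and 232, 251 and 289.7 in Jag1KO, which overlapped. In Jag1KO + rescue it measured 159.6, 219 and 215 CPM, below the 371, 353 and 291 of Jag1KO + ctrl in every library. In siCtrl it measured 301, 297 and 289 CPM, again below the 337, 340.2 and 326 of siJag1 in every library. The log2 fold change was 0.23 ± 0.12 (SE, n = 3 and 3) in Jag1WT against Jag1KO (adjusted p = 0.625, edgeR). It was -0.78 ± 0.18 in the rescue, with an unadjusted p of 0.00228 and an adjusted p of 0.104 by edgeR. In siCtrl against siJag1 it was -0.17 ± 0.09 (adjusted p = 0.97, edgeR), a difference of 1.13-fold. The rescue difference was called by DESeq2 (-0.77, adjusted p = 0.00502), by edgeR over all 18 libraries (-0.80, adjusted p = 0.00383) and by edgeR without Jag1KO + ctrl replicate 3 (-0.87, adjusted p = 0.00923). These fits called 12.3%, 16.7% and 29% of all genes. Its lowest group, Jag1KO + rescue (198 ± 33.1 CPM, SD, n = 3), did not overlap with the next, Jag1KO (258 ± 29.4).

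Groups that do not overlap were common among all genes. In Jag1WT against Jag1KO 2 of 7 members did not overlap (MMP10 and TIMP1), beside 13.8% of all genes tested. In the rescue 3 of 7 did not overlap (MMP3 higher, MMP14 and TIMP2 lower), beside 32.5%. In the siRNA comparison 2 of 7 did not overlap (MMP10 higher, TIMP2 lower), beside 10.5%. With 3 libraries against 3, an exact two-sided permutation test of a single gene cannot go below 0.1.

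Fitting the 3 comparisons together over 18 libraries, with the comparison as a term, called 0 of the 7 members, as against 0.447% of 12757 genes. By the test of edgeR across genes, 2 members had an unadjusted p below 0.05 here, among 2739 genes. TIMP1 had a log2 fold change of 0.42 ± 0.10 and MMP10 of 1.21 ± 0.50, with adjusted p of 0.0656 and 0.197 by edgeR. TIMP1 was below the fold threshold in this fit, at 1.33-fold, while MMP10 was at 2.31-fold. TIMP2 was lower by -0.25 ± 0.12 (adjusted p = 0.248, edgeR), and MMP1 (0.44 ± 0.34), MMP3 (0.41 ± 0.58), MMP14 (-0.09 ± 0.14) and MMP15 (-0.16 ± 0.23) had adjusted p of 0.433, 0.676, 0.723 and 0.687 by edgeR. Without the 3 libraries that stand apart, 0.588% of genes and 0 members were called, and MMP10 had a log2 fold change of 2.01 ± 0.49 (adjusted p = 0.0625, edgeR).

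Whether a member differed more in one comparison than in another was tested as the difference of its log2 fold changes. No member passed in any of the 3 tests, in which 0.555%, 0.11% and 0.094% of genes did, while 3, 1 and 3 members had an unadjusted p below 0.05, among 2843, 495 and 2549 genes. The closest was TIMP2, whose log2 fold change in Jag1WT against Jag1KO exceeded that in the rescue by 1.03 ± 0.21 (adjusted p = 0.0559, edgeR). For MMP14 the same difference was 0.90 ± 0.30 (adjusted p = 0.125, edgeR) and for MMP3 -2.51 ± 1.12 (adjusted p = 0.215, edgeR). MMP3 differed by 3.09 ± 1.09 between the rescue and siRNA comparisons (adjusted p = 0.171, edgeR).

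Groups that differ in handling but not in the planned JAG1 level showed how far members moved without such a change. Jag1KO + ctrl against Jag1KO called 0 of 7 members, and 0% of 12956 genes, with 753 genes at an unadjusted p below 0.05, and DESeq2 called 13 genes. Here MMP3 had a log2 fold change of -1.37 ± 0.89 and TIMP2 of 0.38 ± 0.15 (unadjusted p = 0.0416, adjusted p = 0.757, edgeR). siCtrl against Jag1WT likewise called 0 of 7 members, and 0% of 12797 genes, with 176 genes at an unadjusted p below 0.05, and DESeq2 called 0. In this comparison MMP10 was lower in siCtrl, by -0.52 ± 0.18 on the log2 scale (unadjusted p = 0.0165, adjusted p = 1.00, edgeR). These libraries were treated as paired by replicate number. With the replicate block the adjusted p of MMP10 was 0.00223 by edgeR at a 1.43-fold lower level, below the fold threshold, with 0.00781% of genes called.

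The levels of MMP1, MMP3 and MMP10 tended to be lower in libraries where markers of dividing cells were higher. The summed CPM of MKI67, TOP2A, CCNB1, CDK1, MCM2 and PCNA ranged from 175 to 255 in 10 libraries and from 425 to 1440.5 in the other 8, with no library between. MMP1 was at 5897 to 9897 CPM in those 10 and at 1150.1 to 6019 in the 8. MMP3 was at 35.2 to 136 CPM in the 10 and at 3.83 to 37.6 in the 8, and MMP10 at 38.1 to 168 and 2.34 to 78.8. The 8 were replicate 2 of all 6 groups, Jag1KO replicate 3 and Jag1KO + ctrl replicate 1. The library of each low-JAG1 group that stood apart was on the other side of this gap from its 2 fellow replicates. All 6 proliferation genes were lower in the JAG1-higher group of each comparison, with medians of -1.23, -1.42 and -0.69 on the log2 scale. Of them MCM2, a replication licensing factor, was called in Jag1WT against Jag1KO (-0.78, adjusted p = 0.0442, edgeR), and 0 were called in the other comparisons. TIMP1 was at 196 to 311 CPM in the 10, with a median of 279, and at 159 to 288 in the 8, with a median of 186. In each low-JAG1 group the TIMP1 values of the libraries with the higher sums were the lower ones, with 159 and 167 against 196 CPM in Jag1KO, 195 and 163 against 210.4 in Jag1KO + ctrl and 177 against 298 and 276 in siJag1. For TIMP2 the medians were 296 CPM in the 10 and 293 in the 8, and for MMP14 1492 and 1409.6. The part of proliferation in the member differences, the TIMP1 call included, was not tested.

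**Figure D3:**
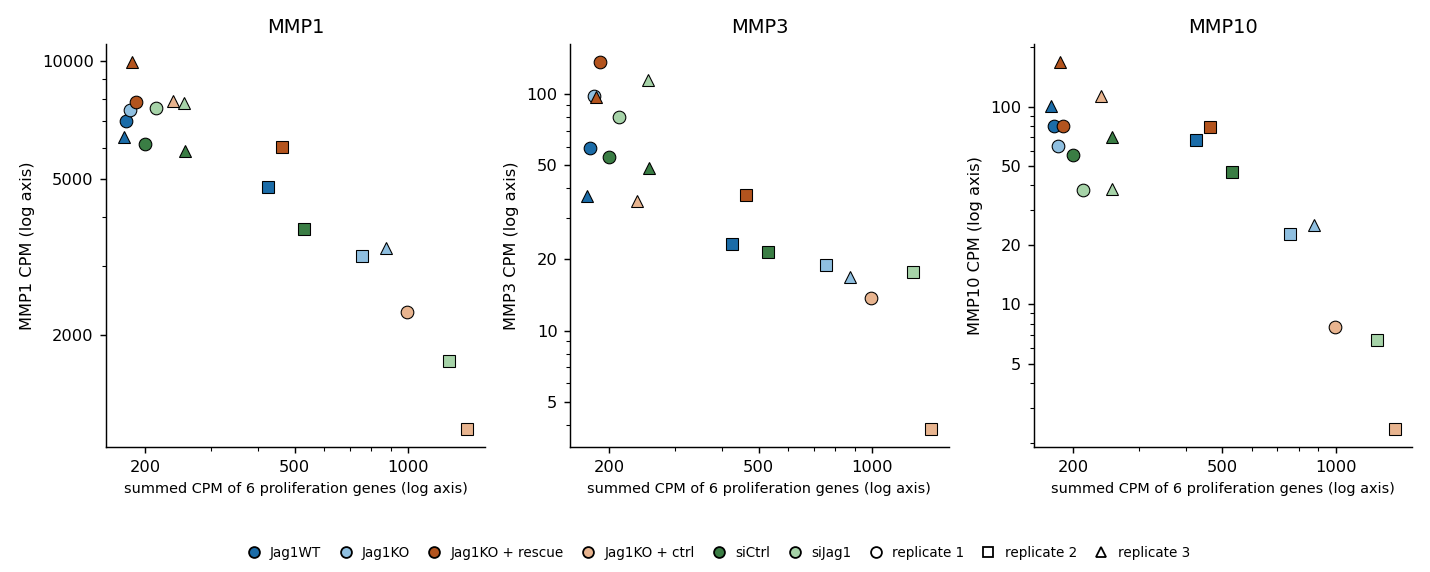
CPM of MMP1, MMP3 and MMP10 against the summed CPM of 6 proliferation genes in each of the 18 libraries, both on log axes. Colours give the condition and symbols the replicate number. The 10 libraries with sums up to 255 have MMP1 at 5897 CPM or more, and the lowest MMP1, 1150.1 CPM, is in the library with the highest sum, 1440.5.

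Ratios within a library put the members on a common footing, and these were chosen after their values were seen, so they carry no test. MMP10 reads were 1.13%, 1.42% and 1.57% of MMP1 reads in Jag1WT and 0.844%, 0.719% and 0.759% in Jag1KO. They were 0.928%, 1.25% and 1.19% in siCtrl and 0.504%, 0.386% and 0.491% in siJag1. Both pairs of groups were thus separate, while Jag1KO + ctrl (0.336%, 0.203% and 1.44%) overlapped with Jag1KO + rescue (1.02%, 1.31% and 1.70%). The MMP10 to MMP3 read ratio was 1.05, 2.17 and 1.44 in siCtrl and 0.475, 0.374 and 0.335 in siJag1. This ratio separated the groups in the siRNA comparison only. It overlapped between Jag1WT and Jag1KO, with means of 2.33 and 1.12, and between Jag1KO + rescue and Jag1KO + ctrl, with means of 1.47 and 1.46. The ratio of TIMP1 to TIMP2 RPKM was 1.74, 1.77 and 1.59 in Jag1WT against 1.57, 1.18 and 1.075 in Jag1KO. It was 3.35, 1.70 and 2.16 in the rescue against 0.977, 0.860 and 1.35 in its control, and 1.92, 1.80 and 1.83 in siCtrl against 1.64, 0.967 and 1.57 in siJag1. Each library with more JAG1 was above each library with less in all 3 comparisons, by a narrow margin in the first. TIMP1 alone overlapped in the rescue and siRNA comparisons, and TIMP2 alone in Jag1WT against Jag1KO. How often ratios of other gene pairs separated the groups was not counted. The summed RPKM of the metalloproteinases was between 5.26 and 28.2 times that of the 2 inhibitors, and this ratio overlapped between the groups of every comparison.

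**Figure D4:**
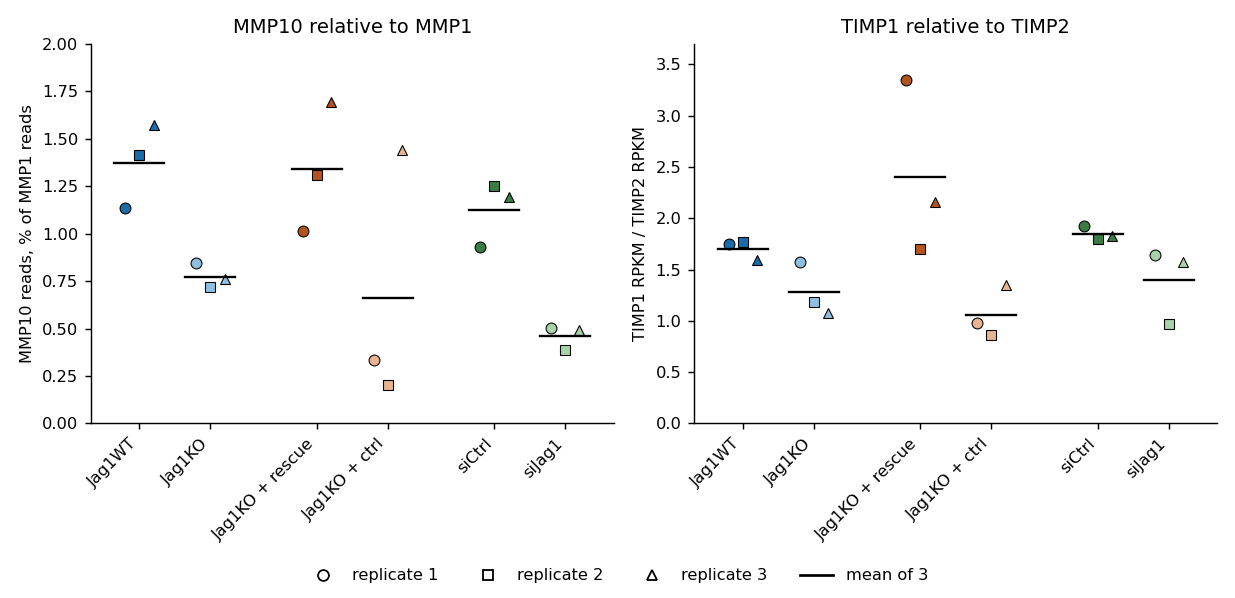
MMP10 reads as a percentage of MMP1 reads (left) and the ratio of TIMP1 to TIMP2 RPKM (right) in each library, by condition, with axes from 0, symbols for the replicate number and bars for the mean of 3. The TIMP1 to TIMP2 ratio is 1.59 to 1.77 in Jag1WT and 1.075 to 1.57 in Jag1KO, and MMP10 is 0.386% to 0.504% of MMP1 in siJag1 and 0.928% to 1.25% in siCtrl.

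The rest of the protease system gave few calls. Of 15 other metalloproteinases 3 were high enough to be tested in some comparison (MMP11, MMP16 and MMP19) and 0 were called. MMP16, a membrane-type enzyme, was the highest of them at a mean of 27.7 CPM, with log2 fold changes of -0.47, 0.56 and -0.35 in the 3 comparisons. Of 5 other inhibitors 4 were tested and 0 were called. TIMP3, the inhibitor held in the matrix, was the highest at 97.0 CPM, with 0.49 ± 0.14 in Jag1WT against Jag1KO (adjusted p = 0.285, edgeR), -0.51 in the rescue and 0.33 in the siRNA comparison. Of 11 genes of activation and docking 10 were tested (9 in the rescue), among them BSG, an inducer of metalloproteinases and the highest at 536 CPM. Of these LCN2, whose product binds MMP9, was called lower in Jag1WT. It measured 59.3, 56.8 and 63.2 CPM there and 135, 117 and 109 in Jag1KO, a log2 fold change of -1.02 ± 0.11 (adjusted p = 0.0106, edgeR). In the rescue LCN2 lay on the other side, with 144, 129 and 131 CPM against 21.6, 12.3 and 125, which was not called (1.33 ± 0.75, adjusted p = 0.246, edgeR). All 12 transcription factors known at metalloproteinase promoters, with ETS1 the highest at 797 CPM, were tested and 0 were called. Their medians on the log2 scale were -0.20, 0.72 and 0.19, with all 12 lower in Jag1WT and all 12 higher in both Jag1KO + rescue and siCtrl, beside medians of all genes near 0.

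Across the 18 libraries, which share conditions and replicate numbers, the log2(CPM + 1) of MMP1 had a Pearson r of 0.925 with MMP10 and 0.907 with MMP3, and MMP3 and MMP10 had 0.742. MMP14 and TIMP2 had 0.83, and TIMP1 and TIMP2 -0.09. The genes with the most similar pattern were SEL1L (0.976) and DNAJC10 (0.975) for MMP1, SMG1 (0.956) and USP24 (0.952) for MMP3, and MAL2 (0.983) and TPBG (0.957) for MMP10. They were OCIAD2 (0.957) and PLEK2 (0.924) for MMP14, TEX264 (0.914) and CBX2 (0.894) for MMP15, HLA-B (0.923) and TMCO3 (0.915) for TIMP1, and ESYT2 (0.946) and PCDHGB2 (0.942) for TIMP2. These coefficients describe the libraries and were not tested.

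Shared sequence can blur a few counts. Of the windows of 50 bases of the MMP3 and MMP10 transcripts, 3.33% and 3.45% were identical between both genes, and MMP1, MMP14, TIMP1 and TIMP2 shared none with another gene. WTAPP1 overlaps MMP10, MMP1 and MMP3 on the opposite strand and had 4 to 56 reads per library. TIMP1 lies within SYN1 on the opposite strand, which had 0 to 4 reads. TIMP2 overlaps CEP295NL, a gene of the same strand that had 1 to 10 reads. Since the strand setting of the counting is not given in the sources used here, reads of opposite strands cannot be told apart. For CEP295NL and TIMP2 no strand setting could separate reads of the shared stretch. All these genes had few reads.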

How the data were processed

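Stranded mRNA libraries (Illumina TruSeq) were made from 18 spheroid cultures. Per the labels, the authors' notes name featureCounts, edgeR 3.28.0 in R 3.6.1, MultiQC 1.5 and hg38, and the aligner is not given in the sources used here. The deposited counts are whole reads per gene without normalization. The deposited CPM, treated as a signal because they are scaled by TMM library sizes and sum to a different total in each library, and the deposited RPKM are the authors' values, and RPKM equal CPM divided by 1 length per gene. Here RPKM for all libraries were computed from CPM and that length. Of the RPKM columns, 3 fit no sample name and were left aside, and 292 genes without a symbol were left out of the tests.

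The counts were tested with the quasi-likelihood F test of edgeR 4.0.16 (R 4.3.3) on genes above 1 CPM in 3 of 6, 6 of 12 or 9 of 18 libraries, with TMM. Standard errors are the absolute log2 fold change over the square root of F. The alternatives were RLE size factors, no filter, limma 3.58.1 on log2(CPM + 1), DESeq2 1.42.0, a replicate block, one fit over 18 libraries, and each library left out. Scripts were tested on simulated data. All 10 members are named, with genes of fixed lists that were called or had the highest mean CPM, and the 2 genes with the highest r to each member. Members and lists were chosen with earlier results of these data known. Replicates are labelled as biological. The labels do not say whether replicate numbers pair libraries across groups. Groups were treated as paired where no correlation of deviations between libraries of the same number was below 0.1. These were siCtrl with siJag1 (0.543, 0.522 and 0.264) and siCtrl with Jag1WT (0.595, 0.713 and 0.21). Jag1WT with Jag1KO (0.632, 0.667 and -0.0137) was not treated so, nor was Jag1KO + rescue with Jag1KO + ctrl (-0.207, 0.345 and 0.242) or Jag1KO + ctrl with Jag1KO (-0.356, 0.279 and -0.61). Pairing in these is thus not excluded. Sequences and positions are from RefSeq (GRCh38.p14), and promoters of 4 of the 10 members were in the table used. Tables were made in Python with pandas.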

Additional observations from a re-analysis of the deposited data

How the results depend on the processing

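RLE size factors and no filter on low counts changed the call of none of the 42 member fold changes in the 6 fits, and DESeq2 kept 40 of them, adding MMP10 in Jag1WT against Jag1KO and TIMP2 in the rescue. For MMP10 in the rescue DESeq2 gave no p, and this is counted here as not called. The number of members called was 1 in Jag1WT against Jag1KO, 2 with DESeq2, 0 with one fit over 18 libraries and 0 to 3 with a library left out. In the rescue it was 0, 1 with DESeq2, 2 with one fit over 18 libraries and 0 to 4 with a library left out. Members whose fold change differed between these comparisons numbered 0, 1 without a filter (0.889% of all genes), 1 with DESeq2 (7.71% of all genes) and 0 to 4 with a library left out, and between the rescue and siRNA comparisons 0 to 3. For these differences with a library left out, the share of all genes that passed was not counted. The members therefore cannot be set against it. The highest of each range came without Jag1KO replicate 1 or Jag1KO + ctrl replicate 3, and the cause was not tested. Over all genes, calls in Jag1WT against Jag1KO numbered 92 by edgeR, 93 by limma, 235 by DESeq2, 282 with the replicate block and 8 to 952 with a library left out, and 128 with one fit over 18 libraries. In the rescue they numbered 1, 2, 1583, 3, 0 to 3726 and 2133, and in the siRNA comparison 2, 0, 24, 4, 0 to 4 and 7. In the 3 comparisons together they numbered 57 by edgeR, 49 by limma, 269 by DESeq2, 53 with the replicate block and 28 to 142 with a library left out.

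Reversed signs were limited to log2 fold changes that were not called. With limma these were MMP3 in Jag1WT against Jag1KO (0.22), MMP1 (0.14) and MMP15 (-0.0034) in the siRNA comparison and MMP10 in Jag1KO + ctrl against Jag1KO (-1.20). With the replicate block they were 0.18 for that MMP3, 0.14 for MMP1 and -1.67 for MMP10, and the block changed no call of a member fold change. It did change sizes in the rescue, to 1.51 ± 0.40 for MMP1, 2.66 ± 0.37 for MMP3 and 2.90 ± 0.75 for MMP10. Their adjusted p there were 0.0639, 0.0597 and 0.0612 by edgeR. MMP14, MMP15, TIMP1 and TIMP2 had -0.63, -0.59, 0.36 and -0.79 in that fit. Leaving out a library gave -0.57 to 1.14 for MMP3 and -0.23 to 0.51 for MMP15 in Jag1WT against Jag1KO. In siCtrl against siJag1 it gave -0.54 to 0.20 for MMP1, -0.065 to 0.11 for MMP14 and -0.32 to 0.35 for MMP15. In Jag1KO + ctrl against Jag1KO it gave -1.45 to 0.20 for MMP1, -2.90 to 0.76 for MMP10 and -0.16 to 0.57 for MMP15. In siCtrl against Jag1WT it gave -0.22 to 0.45 for MMP3, -0.036 to 0.095 for MMP14, -0.37 to 0.29 for MMP15 and -0.078 to 0.0034 for TIMP2, and in the 3 comparisons together -0.15 to 0.016 for MMP14. Where a group is left with 2 libraries, its spread is shared with the other group of the fit. Depth limited MMP2, MMP9 and MMP13, with at most 50 reads in a library.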
